A study of Caenorhabditis elegans with 4 samples.

Results

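The left arm of chromosome IV was taken as the part of the chromosome from its left tip to base 4373000 (build WS220), and a peak was counted there when its midpoint lay at or below that base. Of the 9630 SWD-3 peaks in the list deposited for the whole series, 575 lay in this arm, and the remaining 848 peaks of chromosome IV formed the comparison. The peaks were chosen by position alone. Chromatin immunoprecipitation with sequencing (ChIP-seq) had been carried out on formaldehyde-fixed wild-type Caenorhabditis elegans embryos of mixed stages (strain N2, from a population of males and hermaphrodites), with an affinity-purified rabbit polyclonal antibody against SWD-3. The labels name 2 ChIP and 2 input libraries. The values below come from 3 peak lists, 1 for each ChIP replicate and 1 for the series. No input values were used here, so SWD-3 binding cannot be told apart from places where a peak would be called with any antibody.

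SWD-3 belongs to the WDR5 family of WD40-repeat proteins. These are found in the enzyme complexes that add methyl groups to lysine 4 of histone H3, a mark of active promoters. In C. elegans each autosome has a gene-dense centre with little recombination, flanked by arms that are richer in repeats and in histone H3 lysine 9 methylation and recombine more often. One end of each chromosome also carries a pairing centre, a region with many copies of a short motif bound by zinc-finger proteins, where homologous chromosomes pair in meiosis. On chromosome IV it lies in the left arm. These are statements of background; the peak lists come from embryos and hold no measurement of recombination, histone marks or pairing.

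The 3 lists contained very different numbers of peaks in total, with 2698 in replicate 1, 4580 in replicate 2 and 9630 in the series list. How the series list was made from the libraries is not given in the sources used here, and both may have been called from the same reads. Overlap between it and a replicate is therefore not independent support for a site. Each peak has 1 deposited score, the authors' own value on a scale that no header names, and it was used only to rank peaks within a list. The lowest score was 50.03 in replicate 1, 50.01 in replicate 2 and 1.3 in the series list. Whether the lists were called with like thresholds is not known. The lack of a replicate peak at a series peak therefore cannot be read as a failure to replicate under like calling. No test was made of any difference between the arm and the rest of the chromosome, because each list is a single observation. The 95% intervals given with shares are Wilson intervals. They cover only counting error and treat neighbouring peaks as independent.

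In the series list the left arm was the densest part of chromosome IV. It held 131 peaks per Mb, against 57.6 in the centre, 78.7 in the right arm and 64.6 in the rest of the chromosome as a whole, a ratio of 2.03 to the rest. The replicate lists showed little excess over the rest of IV as a whole. Replicate 1 had 131 peaks in the arm, or 30.0 per Mb, against 25.7 per Mb in the rest of IV, a ratio of 1.17. Replicate 2 had 195 peaks in the arm, or 44.6 per Mb against 44.3, a ratio of 1.01. The rest of IV joins a centre and a right arm that differed, and against the right arm alone both replicates were denser in the left arm. Replicate 1 had 24.0 peaks per Mb in the right arm and 26.5 in the centre, ratios of 1.25 and 1.13. Replicate 2 had 31.1 in the right arm and 50.9 in the centre, ratios of 1.43 and 0.877. The series ratios were 1.67 to the right arm and 2.28 to the centre, so the lists differed most in how the arm compared with the centre. By covered length, the contrast with the rest of IV was similar. Series peaks covered 390 kb of the arm, 8.93% of its length, and 3.01% of the rest of IV. Replicate 1 peaks covered 1.39% of the arm and 1.37% of the rest, and replicate 2 peaks 2.45% and 2.58%, with 1.72% in the right arm.

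Against the rest of IV as a whole, the excess of series peaks in the arm lay in peaks without a counterpart in either replicate. Peaks of the series list that overlapped a peak of at least 1 replicate by 1 bp or more numbered 191 in the arm, or 43.7 per Mb, and 560 in the rest of IV, or 42.7 per Mb, a ratio of 1.02. Peaks that overlapped neither replicate numbered 384 in the arm, or 87.8 per Mb, and 288 in the rest, or 22.0 per Mb, a ratio of 4.00. Against the right arm alone both kinds were denser in the left arm, with ratios of 1.34 and 1.91. This split was chosen after its values had been seen. It also follows in large part from the replicate densities above, since series peaks with a replicate peak can lie only where a replicate has peaks.

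**Figure D1:**
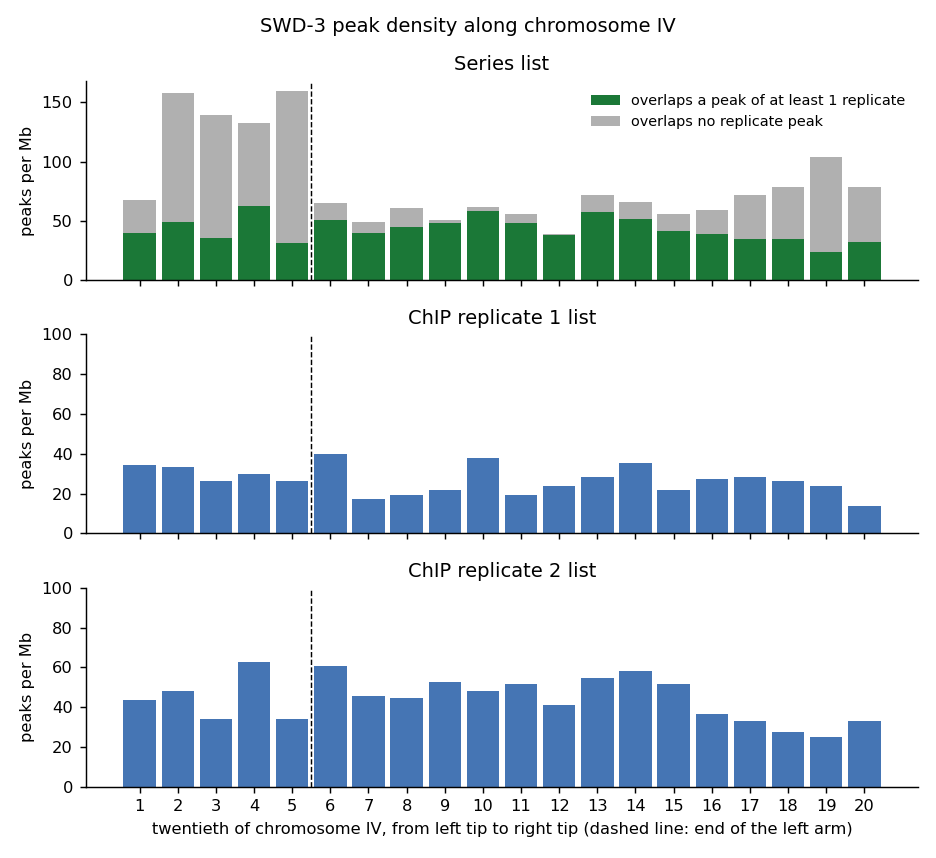
Peaks per Mb in each twentieth of chromosome IV, from the left tip to the right tip, for the series list (upper panel, split by overlap with the replicates) and for each ChIP replicate list (middle and lower panels). Series peaks without a replicate peak (grey) reach 27.4 to 129 per Mb in the left arm and 20.6 to 80.0 in the right arm, against 1.14 to 16 in the central bins, while those with a replicate peak (green) stay between 24.0 and 62.9.

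In the arm, 384 of the 575 peaks (66.8%, interval 62.8 to 70.5) overlapped neither replicate, against 54.7% of all series peaks. The share was 34% (30.9 to 37.2) in the rest of IV, 17.3% (14.2 to 20.8) in the centre and 58.4% (53.2 to 63.5) in the right arm. The intervals of the left arm and the centre lay far apart, and those of the left and right arms overlapped slightly. Replicate 1 had a peak at 76 arm peaks (13.2%, 10.7 to 16.2; 18.6% of all series peaks), against 26.4% in the rest of IV. Replicate 2 had a peak at 179 (31.1%, 27.5 to 35.0; 41.9% of all series peaks), against 59.1% in the rest. Both replicates had a peak at 64 arm peaks (11.1%, 8.81 to 14.0; 15.2% of all series peaks), against 19.5%. Replicate 1 alone had a peak at 12 arm peaks (2.09%, 1.20 to 3.61) and replicate 2 alone at 115 (20.0%, 16.9 to 23.5). The rest of IV had the same imbalance, with 59 (6.96%) and 336 (39.6%). So did the whole list of 9630 peaks, of which 1794 had a replicate 1 peak, 4037 a replicate 2 peak and 1467 both. Per Mb, the peaks found in both replicates were nearly as dense in the left arm as in the centre, at 14.6 and 15.1, and 7.55 in the right arm.

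**Figure D2:**
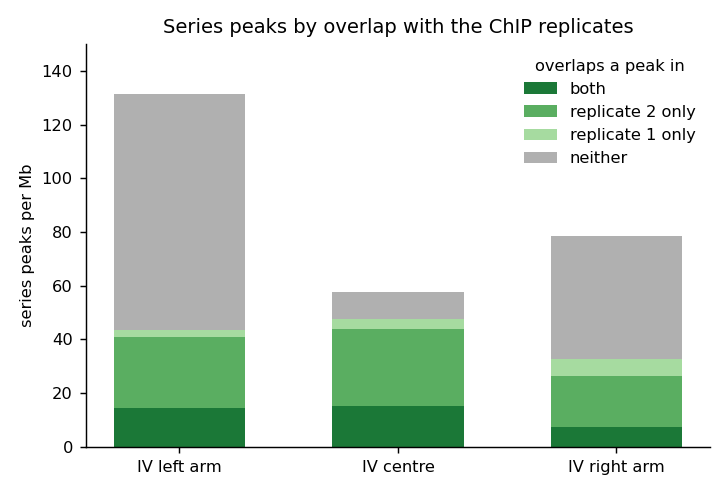
Series peaks per Mb in the left arm, centre and right arm of chromosome IV, stacked by overlap (1 bp or more) with the ChIP replicate lists. The coloured part is 43.7 per Mb in the left arm, 47.7 in the centre and 32.7 in the right arm, and the grey part 87.8, 9.95 and 46.0.

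Peaks were not spread evenly within the arm. Counted in bins of 500 kb, the terminal bins were the sparsest, with 35 series peaks between bases 1 and 500000 (70 per Mb) and 31 between 500001 and 1000000 (62 per Mb). The next bin, from 1000001 to 1500000, had 92 peaks (184 per Mb) and 71.5 kb of covered length. The innermost bin, from 4000001 to the border at 4373000, also had 92 peaks in its 373 kb and was the densest, at 247 per Mb. Of these, 80 (87.0%, 78.6 to 92.4) overlapped no replicate peak, against 13 of 35 (37.1%, 23.2 to 53.7) in the terminal bin. The bins between these ranged from 94 to 184 series peaks per Mb, with no steady rise along the arm. Replicate peaks did not follow the contrast between the innermost and the terminal bin. Replicate 1 had 7 peaks in the innermost bin and 19 in the terminal bin, or 18.8 and 38 per Mb. Replicate 2 had 13 and 24, or 34.9 and 48 per Mb. In both replicates, the terminal bin was thus denser than the innermost bin, the reverse of the series list. In the bin from 500001 to 1000000, replicate 1 had 28 peaks per Mb and replicate 2 had 34. Only replicate 1 was denser there than in the innermost bin.

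When chromosome IV was cut into 20 equal bins, the last of the arm held 160 series peaks per Mb and the next, beyond the border, 65.2. The replicates went the other way there, from 26.3 to 40.0 per Mb in replicate 1 and from 34.3 to 60.6 in replicate 2. The last series peak of the arm lay at 4360618 to 4360764 (score 3.71, rank 8072 of 9630), and the first peak beyond the border at 4377261 to 4377558 (score 16.23, rank 2474). The last arm peaks of replicates 1 and 2 lay at 4325351 to 4325620 and at 4358310 to 4358564. At the other end, the first series peak lay at 17311 to 17471 (score 6.98, rank 5406), although both replicates had a peak starting at base 1 of the chromosome. These tip peaks were 233 bp wide in replicate 1 (rank 704 of 2698) and 252 bp wide in replicate 2 (rank 4480 of 4580).

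Peak widths in the arm ranged from 146 to 22356 bp. The median was 312 bp (quartiles 215.5 and 528.5), against 285.5 bp (209 and 429.75) in the rest of IV, 263 bp in the centre and 332.5 bp in the right arm. The lower quartiles were close and the upper quartiles were not, so the arm differed mainly in its wider peaks. Peaks wider than 1500 bp, here called wide domains, numbered 54 in the arm (9.39%, 7.27 to 12.1; 9.28% of all series peaks). In the rest of IV there were 39 (4.60%, 3.38 to 6.23), of which 9 lay in the centre and 30 in the right arm. Wide domains held 191 kb, or 49.0% of the length covered by arm peaks, against 28.1% in the rest of IV. This share was 14.1% in the centre and 39.6% in the right arm. The share of wide domains in the arm was close to that of the whole list and to that of the right arm (8.72%, 6.18 to 12.2), and the centre stood apart (1.79%, 0.942 to 3.36). The replicates had few wide peaks anywhere. In the arm there were 3 in replicate 1 (2.29%) and 3 in replicate 2 (1.54%), against 2.37% and 2.07% in the rest of IV and 2.56% and 2.21% of all peaks of those lists.

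The widest domain of the arm ran from 890242 to 912597 (22356 bp, score 45.76, rank 452), and its width ranked 3 among all series peaks. It overlapped a single replicate 1 peak, which was of low rank (2487 of 2698) and accounted for 185 bp or 0.828% of the domain, and no replicate 2 peak. A second domain, of 8140 bp, followed 305 bp further on, at 913581 to 921720 (score 57.13, rank 266). It overlapped no replicate peak. Together with another series peak they formed a stretch of 31.5 kb, from 890242 to 921720, that was almost wholly covered (98.2%).

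Among the other 8 of the 10 widest peaks were 2 close pairs. The domains at 1548392 to 1557678 (9287 bp, score 68.97, rank 161) and 1557780 to 1564027 (6248 bp, score 31.03, rank 1024) were 101 bp apart. Those at 1247610 to 1256282 (8673 bp, score 40.71) and 1256412 to 1260761 (4350 bp, score 40.84) were 129 bp apart. Neither pair had a peak in either replicate. The remaining 4, at 1422036 to 1430028, 2083641 to 2087763, 2488928 to 2493702 and 3794822 to 3799465, were 4123 to 7993 bp wide and had no replicate peak either. The 10 widest peaks covered 80.6 kb, 20.6% of the covered length of the arm, and 7 of them lay in its first 2 Mb. Of all 54 wide domains 22 lay there, close to the part of all arm peaks there (221, or 38.4%). Of all 54 wide domains, 44 overlapped neither replicate, 5 replicate 1 alone, 1 replicate 2 alone and 4 both. Among the last was the domain at 1447141 to 1450949 (3809 bp, score 26.02), of which 612 bp lay under replicate 1 peaks and 791 bp under replicate 2 peaks. In 9 of these 10 cases the replicate peaks took up only a part of the domain. The exception was the domain with a replicate 2 peak alone, at 3206284 to 3209602 (3319 bp, score 21.86), which lay wholly under a replicate 2 peak of rank 313. Over all wide domains of the arm, replicate 1 peaks covered 2.01% of the bases and replicate 2 peaks 3.23% (6170 bp, 3319 of them in that domain). In the arm peaks of up to 1500 bp, they covered 9.10% and 27.3%.

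Scores in the arm spanned nearly the whole range of the list, from 1.31 to 159.26, with a median of 7.45 against 8.40 in the rest of IV. The median arm peak stood at percentile 46.3 of all series peaks, and that of the rest of IV at percentile 51.2. The highest-scoring 25% of the list took in 133 arm peaks (23.1%, 19.9 to 26.7; 24.9% of all series peaks) and 24.2% of the rest of IV, and the lowest-scoring 25% took in 153 (26.6%, 23.2 to 30.4) and 23.6%. These intervals overlapped. The arm held the highest-scoring peak of chromosome IV. Among the first 100 peaks of the series list, 6 were arm peaks and 9 lay in the rest of IV. These counts were close to the part of the list that each region held, 575 and 848 of 9630 peaks.

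That highest peak lay at 1659005 to 1659504 (500 bp, score 159.26, rank 3 of 9630). It was the only arm peak among the 10 first of the whole list, and it was also the first peak of the arm in replicate 1 (score 1070.81, rank 61 of 2698) and the second in replicate 2 (score 2713.15, rank 25 of 4580). The next were at 390236 to 390710 (score 133.65, rank 16), 1595745 to 1596252 (score 130.58, rank 18) and 654694 to 655117 (score 118.76, rank 27). Each of these had a peak in both replicates, of rank 64, 75 and 120 in replicate 2 and of rank 555, 430 and 560 in replicate 1. All of them ranked higher in replicate 2 than in replicate 1, although the lists differ in length.

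The fifth peak, at 4184538 to 4185101 (score 98.58, rank 49), was the only one of the 10 highest outside the first 2 Mb of the arm, where 38.4% of the arm peaks lay. The peaks at 443581 to 444041 (score 89.34), 126085 to 126702 (score 81.96) and 1009488 to 1009884 (score 81.89) followed, each with a peak in both replicates. The peak at 126085 to 126702 was of rank 90 in replicate 2 and only 1900 in replicate 1. The last places were taken by the wide domain at 1548392 to 1557678, with no replicate peak, and by the peak at 854314 to 854692 (score 67.07), with a replicate 2 peak alone. Apart from the wide domain, the 10 highest peaks were 379 to 618 bp wide.

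Overlap of the arm peaks with the replicates varied with both width and score. Among arm peaks of up to 400 bp, the 138 with a peak in at least 1 replicate had a median score of 11.4 and a maximum of 81.89, and 80 of them scored above 10. The 216 without a replicate peak had a median score of 4.20, and 8 of them scored above 10. The highest of these, at 3318655 to 3318989, had a score of 22.81. Wide domains also scored high, with a median percentile of 80.4, and 37 of the 54 were in the highest-scoring 25% of the list. Among arm peaks in that 25%, 79 of 92 of up to 1000 bp (85.9%, 77.3 to 91.6) had a replicate peak, against 6 of 41 wider ones (14.6%, 6.88 to 28.4). In the rest of IV the same shares were 95.9% (91.8 to 98.0) of 171 and 32.4% (19.1 to 49.2) of 34. The arm shares were lower in each width range, but the intervals of the wider peaks overlapped. The right arm alone was close to the left arm, with 87.5% (75.3 to 94.1) of 48 and 20.8% (9.24 to 40.5) of 24. The centre had 99.2% (95.5 to 99.9) of 123 and 60% (31.3 to 83.2) of 10.

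**Figure D3:**
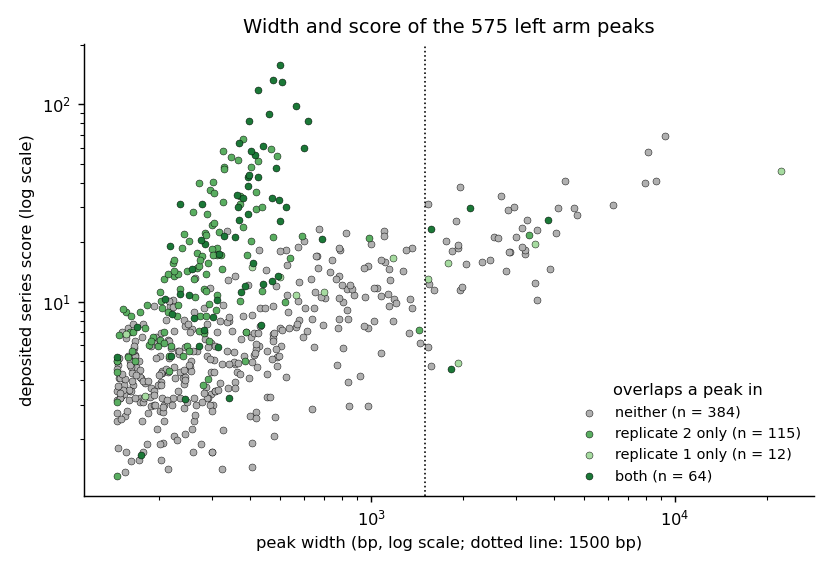
Width (log scale, bp) against deposited series score (log scale) for each of the 575 peaks of the left arm, coloured by overlap with the ChIP replicate lists. Peaks found in both replicates (dark green) lie mostly on a steep branch of narrow peaks that reaches a score of 159.26, and the wide domains right of the dotted line at 1500 bp are mostly grey, 44 of 54.

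The share of peaks found again in a replicate was lower in the arm than in the rest of IV at every width. Of arm peaks wider than 200 and up to 400 bp, the commonest range, 46.7% (40.5 to 53.0; 113 of 242) had a peak in at least 1 replicate, against 75.1% (70.7 to 79.0) of 417 in the rest. For peaks of up to 200 bp the shares were 22.3% (15.6 to 30.9) and 64.2% (57.1 to 70.7), and above 400 and up to 800 bp 33.1% (25.3 to 41.8) and 59.0% (51.1 to 66.4). Above 800 and up to 1500 bp they were 6.52% (2.24 to 17.5) and 38.8% (26.4 to 52.8). Wide domains had 18.5% (10.4 to 30.8) and 41.0% (27.1 to 56.6), the only range in which the intervals overlapped. The rest of IV again joins a centre and a right arm that differed. From the narrowest range to the widest, the right arm shares were 34.4%, 54.3%, 35.1%, 28.9% and 30.0%. The left arm lay below these too, but the interval of each overlapped that of the left arm. In the centre the shares were 79.7%, 85.3%, 80.5%, 72.7% and 77.8%. Among the highest-scoring peaks wider than 200 and up to 400 bp, the arm and the rest hardly differed. In the highest-scoring 25% of the list, 50 of 51 arm peaks wider than 200 and up to 400 bp (98.0%) and 108 of 109 in the rest (99.1%) had a replicate peak. In the lowest-scoring 25%, 5 of 72 arm peaks of that width did (6.94%, 3.0 to 15.2) and 37 of 89 in the rest (41.6%, 31.9 to 52.0).

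**Figure D4:**
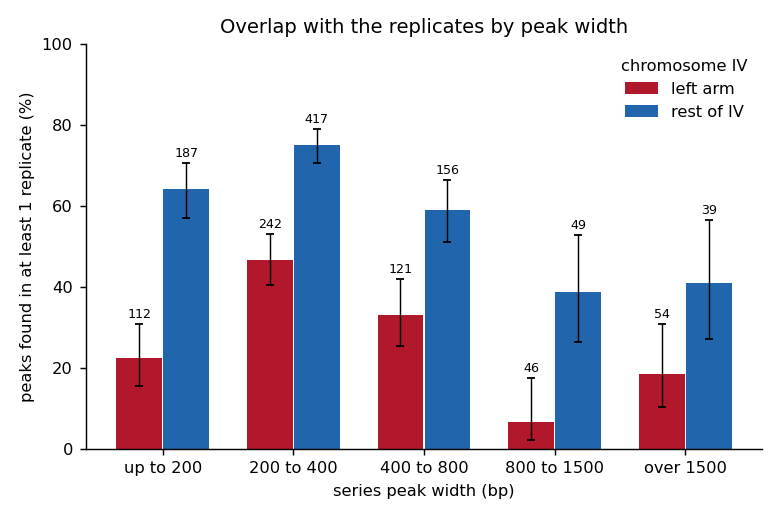
Percent of series peaks that overlap a peak of at least 1 ChIP replicate, by peak width, for the left arm and the rest of chromosome IV; error bars are 95% Wilson intervals and the numbers above them are peaks in the class. The arm lies below the rest in every width class, from 22.3% against 64.2% up to 200 bp to 18.5% against 41.0% over 1500 bp. The rest joins the centre and the right arm, which are not drawn apart.

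Arm peaks were closely spaced. The median distance from the end of a peak to the start of the next was 1149 bp (quartiles 270.25 and 6517.75), against 5697 bp (642 and 21612.5) in the rest of IV, 9068 bp in the centre and 1636 bp in the right arm. Distances under 500 bp made up 36.8% (32.9 to 40.8) in the arm, 15.1% (12.2 to 18.5) in the centre and 33.8% (29.0 to 39.0) in the right arm, so the arms were alike within their intervals and the centre was not. When peaks less than 2000 bp apart were counted as a run, the 575 arm peaks formed 238 runs, 145 of which were single peaks. Runs of 5 or more peaks numbered 31 and held 271 peaks, 47.1% of the arm, against 18.2% of the peaks in the rest of IV. The share was 10.7% in the centre and 29.1% in the right arm. In contrast, arm peaks found in at least 1 replicate had a median distance of 14.5 kb, against 11.8 kb in the rest of IV, a selection made after the values had been seen. In the replicate lists the median distances in the arm were 17.4 and 14.3 kb, and in the rest of IV 21.7 and 11.6 kb.

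Single series peaks had a replicate peak more often than peaks in runs. Of the 145 single peaks of the arm, 106 (73.1%, 65.4 to 79.7) had a peak in at least 1 replicate, compared with 53 of 159 peaks in runs of 2 to 4 (33.3%, 26.5 to 41.0) and 32 of 271 in runs of 5 or more (11.8%, 8.49 to 16.2). The intervals of the 3 classes did not overlap. In the right arm the shares were similar, at 75.5%, 39.1% and 9.0%, whereas in the centre they were 89.9%, 80.2% and 53.7%. The single arm peaks also ranked higher, with a median percentile of 63.1 against 39.6 in runs of 5 or more, so spacing and score were not separated here.

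**Figure D5:**
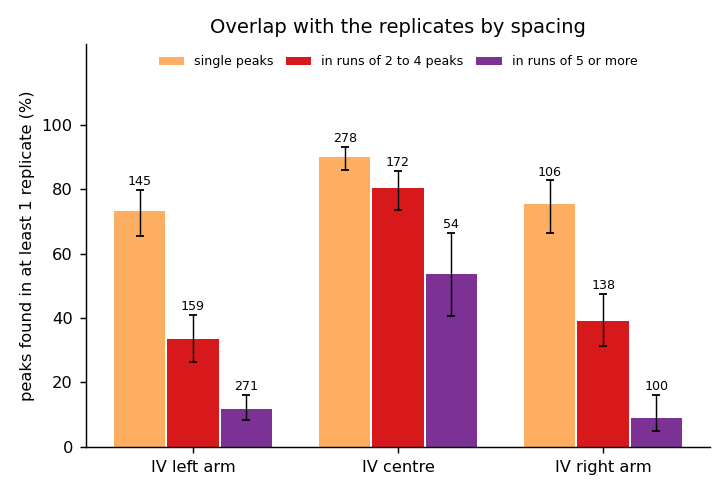
Percent of series peaks that overlap a peak of at least 1 ChIP replicate in the left arm, centre and right arm of chromosome IV, for single peaks, peaks in runs of 2 to 4 and peaks in runs of 5 or more (runs are joined over distances under 2000 bp). Error bars are 95% Wilson intervals, numbers are peaks, and the left arm goes from 73.1% for single peaks to 11.8% in the longest runs.

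The run with the most peaks, 18, extended over 32.7 kb from 1239709 to 1272421 and included the pair of wide domains at 1247610 and 1256412. It was covered to 77.1% and had 1 peak with a replicate 1 overlap and 1 with a replicate 2 overlap. A run of 17 peaks from 4016197 to 4032093 was made of narrower peaks, the widest 1180 bp, and 2 of them had a replicate 2 peak. A run of 15 peaks from 2576046 to 2597167 had no replicate peak at all. The longest stretch of the arm without a series peak, 97.3 kb, lay between 3824994 and 3922301. It contained 3 peaks of replicate 1 and 0 of replicate 2.

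The replicate lists were also compared with each other in the arm, independently of the series list. Of the replicate 1 peaks of the arm, 75 of 131 (57.3%, 48.7 to 65.4; 62.5% of the whole list) overlapped a replicate 2 peak, against 57.6% (52.2 to 62.7) in the rest of IV. Of the replicate 2 peaks, 73 of 195 (37.4%, 30.9 to 44.4; 34.9% of the whole list) overlapped a replicate 1 peak, against 31.8% (28.2 to 35.7). The intervals of the arm and of the rest overlapped in both directions. In replicate 1 the share was 65.9% (59.6 to 71.7) in the centre and 39.0% (30.3 to 48.6) in the right arm, with intervals that lay apart, and the left arm fell between them.

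Some strong replicate peaks of the arm had no strong series peak. In replicate 1, 55 of 131 arm peaks (42.0%, 33.9 to 50.5; 34.8% of the whole list) overlapped no series peak, and in replicate 2, 22 of 195 (11.3%, 7.57 to 16.5; 17% of the whole list). In the rest of IV these shares were 38.3% (33.2 to 43.6) and 20.0% (16.9 to 23.4). Of the unmatched peaks, 12 in each replicate overlapped a peak of the other. The arm peak ranked 2 in replicate 1, at 688698 to 693429 (4732 bp, score 849.82, rank 96), had a peak neither in the series list nor in replicate 2. It was followed by peaks at 693704 to 695702 (1999 bp) and 695841 to 698277 (2437 bp, rank 194) that had none either. These 3 peaks were all the peaks of replicate 1 wider than 1500 bp in the arm.

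The arm peaks of replicate 1 ranked 3, 4 and 5 did have series peaks. At 3232616 to 3233954 (score 838.81) and 3050158 to 3050965 (score 696.06) each overlapped 2 series peaks, the better of rank 1379 and 998, and a replicate 2 peak of rank 122 and 439. The peak at 1830999 to 1831736 (score 779.64, rank 111) met a series peak of rank 8553 and a replicate 2 peak of rank 3366, so it was strong in replicate 1 alone. In replicate 2, the first arm peak lay at 3384398 to 3385798 (1401 bp, score 2886.16, rank 20). It overlapped 2 series peaks, the better of rank 226, and a replicate 1 peak of rank 398. The next 4, at 1658873, 390124, 1595603 and 125955, lay at series peaks already described, of rank 3, 16, 18 and 102. Beyond these 5, the arm peaks of replicate 2 ranked 6, 8 and 10 met series peaks of rank 27, 76 and 410. Those ranked 7 and 9 met series peaks of rank 1379 and 5337 at best. Among the first 10, high rank was thus mostly shared with the series list in replicate 2, with exceptions. Among the first 5 of replicate 1 it was shared only in part. Across overlapping pairs of arm peaks, Spearman's rho between series and replicate scores was 0.74 for replicate 2 (181 pairs) and 0.18 for replicate 1 (79 pairs), and 0.35 between the replicates (75 pairs). In the rest of IV it was 0.60 (501 pairs), -0.01 (233 pairs) and 0.36 (195 pairs). These are descriptions across peaks that may share reads, with no test.

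The left arm of IV was set beside the left arms of II, III and V. It had 131 peaks per Mb, the left arms of II and III 204 and 191, and that of V 108. Wide domains made up 14.3% of peaks on II (12.0 to 16.9), 13.4% on III (11.0 to 16.2), 9.39% on IV and 7.80% on V (5.86 to 10.3). They held 59.1%, 54.2%, 49.0% and 42.7% of the covered length in the left arms of II, III, IV and V. Runs of 5 or more peaks held 68.8%, 58.9%, 47.1% and 42.0% of the peaks in the same order. The share without a replicate peak was 83.5% (80.8 to 86.0) on II, 73.8% (70.3 to 77.0) on III and 77.0% (73.3 to 80.2) on V. At 66.8% (62.8 to 70.5) the left arm of IV was the lowest of these 4 arms, and its interval met only that of III, at its edge. It was not the lowest of the autosomal left arms, since that of I had 51.6%, with 105 peaks per Mb and 4.81% wide domains. Among all 12 chromosome arms it ranked 5 in density and in covered length, and 6 both in the share of wide domains and in the share without a replicate peak. In peaks found in at least 1 replicate it ranked 7, with 43.7 per Mb, and the left arm of V last, with 24.9. It stood at neither end of the order in any of these 5 measures.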

How the data were processed

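The deposited files are 3 peak lists. Per the file headers, their coordinates are of WormBase build WS220. The source column of the replicate lists names MACS with no version and that of the series list MACS v2. BWA and ce10 are named in the submitters' processing notes. The sources used here do not give thresholds, control, pooling or read depth. The deposited score per peak has no stated scale. Starts and ends were used as deposited.

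Everything else was computed with scipy 1.17.1, pandas 2.3.3 and numpy 2.4.6 under Python 3.11.15; figures were drawn with matplotlib 3.10.9. The length of IV was set to the last peak end in any list (17493019), and the right arm as its last 4373000 bases. Shared peaks overlapped by at least 1 bp. Percentiles run over all peaks of a list, with 100 the highest. The functions for overlap, joining and density were tested on simulated data. Replicates are samples that the labels number 1 and 2, with no statement of separate cultures.

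Peaks named in the text are the 10 highest-scoring and 10 widest of the arm, the 5 first of each replicate there, those at the border and tip, the extreme 500 kb bins, the run with the most peaks and the widest gap. The other 2 runs, the terminal 500 kb and the domains at 1447141 and 3206284 were picked with their values in view. So were the replicate 2 arm peaks ranked 6 to 10, the highest narrow peak without a replicate peak and the peaks at 693704 and 695841. The members, rules and alternatives were chosen with earlier results of these data known. Genes and sequences at the peaks are not reported here, since the gene table at hand is of another build (WBcel235).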

Additional observations from a re-analysis of the deposited data

How the results depend on the processing

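The 13 results were recomputed under 69 alternatives, 5 of them chosen after seeing the data (the subsets by replicate overlap, the centre and right arm taken alone). A value was taken as unmoved when it stayed within the main value's 95% interval (Wilson for shares and for the density ratio, binomial order statistics for medians); 29 did, 34 moved and 6 reversed the order of the arm and the rest of IV. A reversal records only the sign of the difference, however small, so these counts do not measure robustness. Leaving out the 10 widest peaks of each region moved none of the 9 results recomputed. The density ratio of 2.03 became 1.76 with the border at 20% of the chromosome, 1.35 with peaks under 2000 bp apart joined, 2.97 in covered bp, 1.17 and 1.01 in replicates 1 and 2, 1.02 and 4.00 for series peaks with and without a replicate peak, 2.28 against the centre and 1.67 against the right arm. In the upper 50% of the series list by score, the median width was 469.5 bp, the median gap 5207 bp and the share of wide domains 18.7%. There the share overlapping replicate 1 was 23.1%, replicate 2 50.7%, both 19.8% and neither 45.9%, and the median percentile reversed to 74.7 in the arm against 74.4. That median had to rise in both regions, since only peaks above percentile 50 were kept. Joined peaks had a median width of 435.5 bp and a median gap of 9817 bp. The median gap reversed to 14493.5 bp for peaks with a replicate peak. With the border at 20% or 30%, replicate 2 overlapped 35.3% or 35.1% of arm peaks and neither replicate 62.2% or 62.8%. The share of wide domains was 13.7% above 1000 bp and 4.17% above 3000 bp, and reversed to 2.29% and 1.54% in replicates 1 and 2. At a 50% reciprocal overlap, replicate 1 overlapped 6.61% of arm peaks, replicate 2 23.8%, both 5.22% and neither 74.8%. Unmatched replicate 1 peaks were then 71.0% and replicate 2 peaks 29.7%, and the share of replicate 2 peaks in replicate 1 was 24.1%. The share of replicate 1 peaks in replicate 2 reversed to 35.9% in the arm against 35.6% at a 50% reciprocal overlap, and to 55.7% against 52.8% with midpoints within 200 bp. That rule also gave 10.6% of arm peaks in replicate 1 and 51.9% of replicate 1 peaks unmatched. Without 1 replicate, the share overlapping no replicate peak lay between 68.9% and 86.8%, the latter without replicate 2. The cause of these changes was not tested. A stricter overlap rule admits fewer pairs by its definition. No paired analysis was possible because the input libraries have no values here and no result comes from a test. The lists hold no read counts, so depth is unknown, and the absence of a peak means no more than that none was called.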
